A study of Caenorhabditis elegans with 12 samples.

Results

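The neuropeptide-like protein (nlp) genes of the nematode Caenorhabditis elegans were taken as all genes whose WBcel235 symbol is nlp- followed by a number. There were 78 such genes among the 46934 gene entries of each deposited table. Of these, 71 carried the symbol in the Ensembl release 115 annotation and 7 (nlp-10, nlp-88, nlp-89, nlp-90, nlp-91, nlp-99 and nlp-119) took it from RefSeq records of the same assembly. All 78 were annotated as protein coding, with 22 on chromosome X, 18 on V, 12 on IV, 11 on II, 8 on III and 7 on I. A filter on low counts left 70 of the 78 for testing, and each p-value was adjusted over all 16259 genes tested.

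Neuropeptides are short signalling peptides cut from longer precursor proteins. The precursors are cleaved by proprotein convertases, trimmed and often amidated, and the peptides leave the cell from dense core vesicles to act mostly on G protein-coupled receptors. In C. elegans the nlp genes are those peptide precursor genes that belong neither to the FMRFamide-like (flp) nor to the insulin-like (ins) family. Most are known from neurons, where single members act in sleep, feeding, egg laying, locomotion and defecation, whereas a subgroup including nlp-29 and nlp-31 is expressed in the epidermis and encodes antimicrobial peptides induced by fungal infection and wounding.

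The study measured RNA by sequencing in 3 libraries for each of 4 genotypes, made from whole hermaphrodites. Wild type was the strain N2. The other strains were VC40130, with the allele dis-3(L75Q), IJ173, with eat-2(ad1116), and IJ2290, the double mutant with both alleles. DIS-3 cuts and trims RNA as the catalytic subunit of the exosome, and L75Q replaces a leucine of the protein by glutamine. EAT-2 is a subunit of a nicotinic acetylcholine receptor of the pharynx, and its loss slows pharyngeal pumping and is used as a genetic model of dietary restriction. All groups were labelled as prefertile adults and were grown on the Escherichia coli strain OP50 at 20 °C. Each genotype was 1 strain, and VC40130 belongs to a public collection of mutagenised, whole-genome sequenced strains. Outcrossing is not given in the sources used here, and the effect of an allele and that of further variants in its strain cannot be told apart. The labels describe independent harvests, so p-values measure the spread between harvests of the same strain.

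Library totals ran from 31812386 to 32773817 expected counts. The mean level of dis-3 itself was not called different in any genotype, and eat-2 was measured at 0.164 to 0.761 CPM (counts scaled by library total but not by gene length), so neither gene checks its own point allele. The 20 neuronal markers, 20 epidermis markers, 15 pharynx markers and 13 of 14 listed intestine markers had counts in all 12 libraries. To place the libraries in development, the mean log2 CPM of 22 oocyte and eggshell genes was subtracted from the mean of 24 molting genes. This stage score was -2.69, 0.42 and -3.53 in wild type replicates 1 to 3, 2.31, 1.73 and -0.90 in dis-3(L75Q), -1.13, 2.26 and 2.30 in eat-2(ad1116), and 1.25, 0.62 and 0.66 for both alleles together. In each of the first 3 groups 1 library stood apart, namely replicate 2 of wild type, replicate 3 of dis-3(L75Q) and replicate 1 of eat-2(ad1116). The mean score was lower in wild type than in each mutant, by 2.98, 3.08 and 2.78 below dis-3(L75Q), eat-2(ad1116) and the double mutant, with exact two-sided permutation p of 0.2, 0.2 and 0.1, where 0.1 is the smallest that 3 libraries against 3 allow.

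The nlp genes spanned a wide range of levels. On a per-length scale (TPM, computed here with the annotated exon length), 28 members averaged above 10 TPM over the 12 libraries, 35 lay between 1 and 10, and 15 were below 1. The 5 most abundant held 56.2% of the summed nlp level. nlp-24, whose opioid-like peptides act on feeding through the receptor NPR-17, was first at 269.6 TPM (range 227.0 to 369.1). nlp-27 of the nlp-29 cluster followed at 141.6 TPM (82.98 to 300.9). nlp-36 stood at 130.9 TPM (99.1 to 153.2), nlp-33 at 123.6 TPM (66.17 to 175.7), and nlp-40, an intestinal gene whose peptide is released rhythmically to trigger the expulsion step of defecation through AEX-2, at 121.5 TPM (97.03 to 135.5). These 5 ranges overlapped, apart from that of nlp-24 over those of nlp-36, nlp-33 and nlp-40. Of the 12 most abundant members, 9 belonged to a list of 11 epidermal antimicrobial nlp genes related by YGGWamide-type peptides (nlp-24 to nlp-34).

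The 8 members left out by the filter had few counts. nlp-22, a peptide gene of the RIA interneurons that acts in larval lethargus, had 1 count over all 12 libraries, as did nlp-32, nlp-39 and nlp-90. nlp-119 had 6 counts, nlp-45 had 32, nlp-67 had 52 and nlp-60 had 56. A library without a count allows up to 3 counts by counting error alone. In the edgeR fit without the filter, none of the 8 was called and none had an unadjusted p under 0.05 in any of the 6 comparisons, with adjusted p of at least 0.41. All values above 0 of the members were exactly whole except those of nlp-99, whose exons share 182 bases with nep-2 on the same strand. A further 19 members overlap another protein-coding gene, and because it is not stated whether counting used strand, reads of the antisense partner cannot be separated for those on opposite strands. Among the genes reported as changed, this touches nlp-35, which shares 68 of its 433 exon bases with C33A12.19, and nlp-41, which shares 8 of 380 with mog-4.

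In eat-2(ad1116) 14 of the 70 tested nlp genes were higher than in wild type and none was lower (edgeR's quasi-likelihood test, Benjamini-Hochberg adjusted p under 0.05). This was 20% of the tested members, where 6.21% of all tested genes were called, 4.08% higher. The 14 genes were nlp-9, nlp-12, nlp-13, nlp-14, nlp-15, nlp-35, nlp-41, nlp-43, nlp-49, nlp-51, nlp-58, nlp-66, nlp-71 and nlp-80, with fitted fold changes of 1.57 to 3.78. Positive fold changes were found for 57 of the 70, with a median of 0.69 on the log2 scale against -0.01 over all genes. None of the 14 belonged to the epidermal antimicrobial list. The count depended strongly on which libraries entered the fit, as given with the stage score further on. In whole animals, more cells of a type and more RNA per cell cannot be told apart.

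The largest rise was that of nlp-51. Its level was 0.793, 2.09 and 1.64 CPM in wild type replicates 1 to 3, and 4.46, 7.71 and 5.01 CPM in eat-2(ad1116). It was 2.51, 2.49 and 2.02 CPM in dis-3(L75Q) and 5.03, 6.30 and 5.204 CPM in the double mutant. All 6 libraries with eat-2(ad1116) thus lay above all 6 without it. The rise from 1.51 ± 0.66 CPM (SD, n = 3) in wild type to 5.72 ± 1.7 (SD, n = 3) in eat-2(ad1116) was 1.92 ± 0.33 (SE) on the log2 scale, with an edgeR adjusted p of 0.0089. In the double mutant, at 5.51 ± 0.69 CPM (SD, n = 3), it was 1.87 ± 0.33 (SE), with an adjusted p of 0.011. In dis-3(L75Q) it was 0.63 ± 0.33 (SE), with an adjusted p of 0.31. The gene lies at chrII:11319223-11319691 (WBcel235, minus strand, WBGene00011997).

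nlp-80 was the most abundant gene called, at 31.1 TPM. Its level was 8.97, 10.5 and 8.43 CPM in wild type, 11.9, 13.9 and 12.3 CPM in dis-3(L75Q), 14.7, 19.2 and 22.1 CPM in eat-2(ad1116), and 17.4, 18.2 and 19.8 CPM in the double mutant. The libraries fell in 3 ranges that did not overlap, wild type below dis-3(L75Q) below all libraries with eat-2(ad1116). Against wild type (9.30 ± 1.1 CPM, SD, n = 3) the log2 change was 1.00 ± 0.16 (SE) in eat-2(ad1116), with an edgeR adjusted p of 0.0072, and 0.99 ± 0.16 in the double mutant, with an adjusted p of 0.0080. In dis-3(L75Q) it was 0.45 ± 0.16, with an adjusted p of 0.29. It lies at chrV:11064954-11065613 (minus strand, WBGene00011428).

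nlp-58 followed the same order with smaller gaps. It stood at 3.17, 2.72 and 2.59 CPM in wild type, at 3.61, 4.22 and 3.62 CPM in dis-3(L75Q), at 4.54, 5.70 and 6.00 CPM in eat-2(ad1116) and at 4.82, 5.65 and 5.32 CPM in the double mutant. No library of a mutant overlapped wild type. The log2 change was 0.94 ± 0.17 (SE) in eat-2(ad1116), with an edgeR adjusted p of 0.012, 0.90 ± 0.17 for the double mutant, with an adjusted p of 0.017, and 0.43 ± 0.17 in dis-3(L75Q), with an adjusted p of 0.29.

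Of the nlp genes listed for a named role in behaviour, 4 of the 12 tested were higher in eat-2(ad1116) and none was lower, 33.3% beside the 4.08% of all genes called higher. nlp-12 encodes cholecystokinin-like peptides of the stretch-sensitive DVA neuron that act through CKR-1 and CKR-2 on locomotion. It measured 2.12, 1.36 and 1.03 CPM in wild type and 3.25, 3.92 and 3.55 CPM in eat-2(ad1116), a log2 change of 1.24 ± 0.27 (SE, edgeR adjusted p = 0.024). The dis-3(L75Q) values of 3.11, 2.00 and 2.71 CPM overlapped wild type, and those of the double mutant, 2.71, 2.44 and 2.93 CPM, lay above wild type and below eat-2(ad1116). nlp-49, whose peptide activates the receptor SEB-3 in locomotion and arousal, was at 4.47, 6.58 and 4.78 CPM in wild type, 5.89, 7.00 and 5.64 CPM in dis-3(L75Q), 8.23, 9.28 and 9.77 in eat-2(ad1116), and 10.5, 8.18 and 9.06 in the double mutant. All 6 libraries with eat-2(ad1116) were above the other 6, with log2 changes from wild type of 0.78 ± 0.19 (SE, adjusted p = 0.034) in eat-2(ad1116) and 0.81 ± 0.19 (adjusted p = 0.038) in the double mutant.

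nlp-9, also on that list, varied little within wild type. It measured 4.79, 4.65 and 4.505 CPM there, 7.21, 7.27 and 5.64 CPM in dis-3(L75Q), 6.81, 7.49 and 7.56 CPM in eat-2(ad1116) and 6.67, 7.83 and 7.63 CPM in the double mutant. All 9 mutant libraries were above the wild type ones, and the 3 mutants overlapped each other. The log2 change was 0.65 ± 0.15 (SE, edgeR adjusted p = 0.032) in eat-2(ad1116) and 0.67 ± 0.15 (adjusted p = 0.035) in the double mutant. In dis-3(L75Q) the change was 0.53 ± 0.15, with an adjusted p of 0.22, the lowest of any nlp gene in that comparison.

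The orcokinin-like genes are nlp-8, nlp-14 and nlp-15, of which nlp-8 and nlp-14 act in the sleep that the ALA neuron drives. Both nlp-14 and nlp-15 were higher in eat-2(ad1116). nlp-14 was at 1.74, 2.31 and 1.55 CPM in wild type and at 2.68, 4.42 and 4.36 CPM in eat-2(ad1116) (log2 change 1.03 ± 0.26, SE, edgeR adjusted p = 0.042). nlp-15 was at 6.53, 8.58 and 6.79 CPM in wild type and at 9.68, 12.3 and 13.8 CPM in eat-2(ad1116) (0.71 ± 0.17, adjusted p = 0.039). For both, the groups did not overlap, and eat-2(ad1116) replicate 1 lay closest to wild type. nlp-8, at 0.571, 0.886 and 0.426 CPM in wild type and 1.04, 1.28 and 1.37 CPM in eat-2(ad1116), also did not overlap, but its log2 change of 0.97 ± 0.38 had an adjusted p of 0.14.

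The other 6 genes called in eat-2(ad1116) have no role given here. nlp-66 rose by 1.56 ± 0.31 (SE) on the log2 scale, from 0.476, 0.507 and 0.426 CPM in wild type to 1.01, 1.79 and 1.37 CPM (edgeR adjusted p = 0.018), and the double mutant had 0.914, 0.794 and 0.479 CPM. nlp-71 rose from 0.957 ± 0.15 to 2.50 ± 0.68 CPM (SD, n = 3 each, adjusted p = 0.038). nlp-35 rose from 0.927 ± 0.17 to 2.08 ± 0.43 CPM (adjusted p = 0.046). The more abundant nlp-43 rose from 4.07 ± 0.92 to 8.66 ± 1.9 CPM (adjusted p = 0.023), with the lowest eat-2(ad1116) library, 6.48 CPM, above the highest of wild type, 4.79 CPM. nlp-41 rose from 3.42 ± 0.20 to 6.47 ± 1.5 CPM (adjusted p = 0.040) and nlp-13 from 2.39 ± 0.22 to 4.33 ± 0.63 CPM (adjusted p = 0.018). Members just outside the threshold were nlp-5 and nlp-99, both at an adjusted p of 0.051, and nlp-3, a transmitter of the egg-laying HSN motor neurons, at 0.057. nlp-3 stood at 3.84, 6.71 and 5.60 CPM in wild type and 7.44, 9.78 and 11.7 CPM in eat-2(ad1116).

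**Figure D1:**
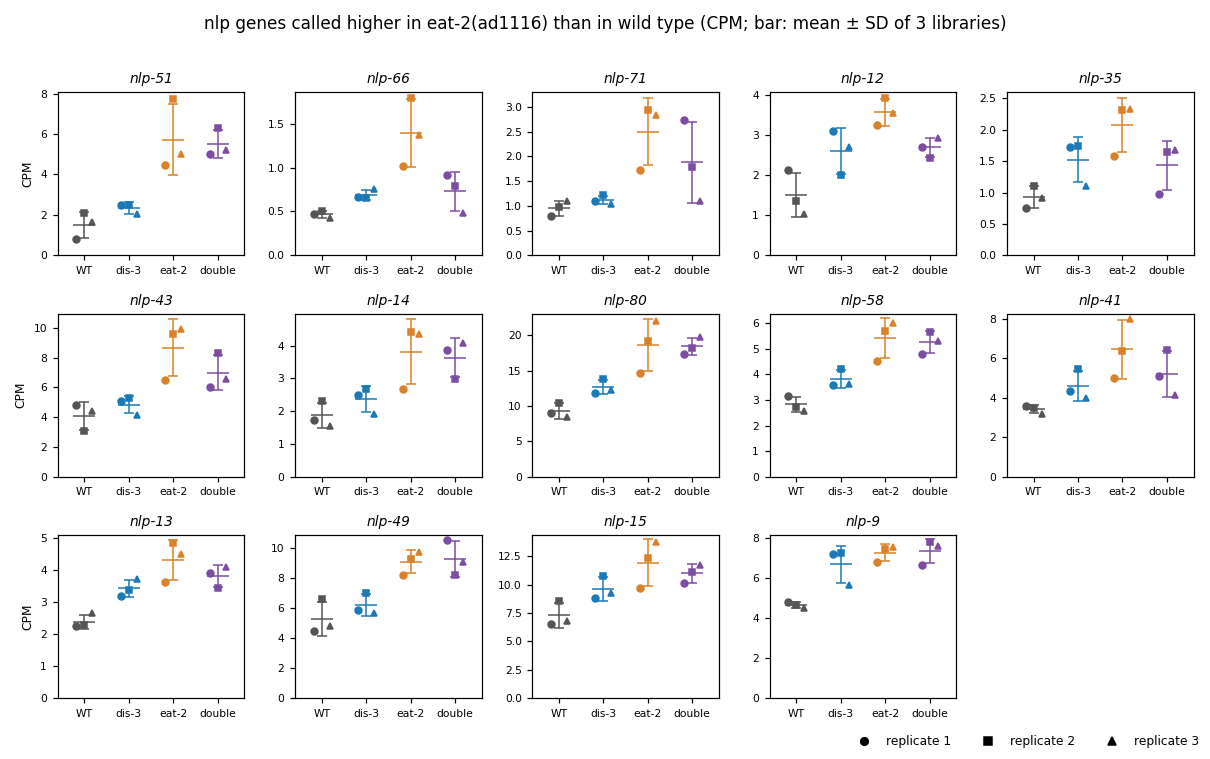
CPM of the 14 nlp genes called higher in eat-2(ad1116) than in wild type, 1 panel a gene with its own axis from 0, for wild type (grey), dis-3(L75Q) (blue), eat-2(ad1116) (orange) and the double mutant (purple). Symbols are libraries by replicate number, and bars give the mean ± SD of 3 libraries. In all 14 panels the eat-2(ad1116) libraries lie above wild type and replicate 1 is the lowest of them.

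Across these 14 genes the genotypes kept a common order. The mean of dis-3(L75Q) lay between those of wild type and eat-2(ad1116) in all 14, and its 3 libraries were all above wild type in 8. The mean of the double mutant was above that of dis-3(L75Q) in 13 and below that of eat-2(ad1116) in 12, and its libraries were all above wild type in 12. eat-2(ad1116) replicate 1 was the lowest of its genotype in all 14, as it was the lowest in stage score. The genes were chosen by the eat-2(ad1116) comparison and all 3 comparisons share the wild type libraries, so the common order adds no separate evidence.

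Several other members with known roles did not pass the test in eat-2(ad1116). nlp-1, an AWC olfactory neuron peptide acting through NPR-11, had 6.94, 7.57 and 4.90 CPM in wild type and 7.63, 12.7 and 12.0 CPM in eat-2(ad1116) (log2 change 0.73 ± 0.24, SE, edgeR adjusted p = 0.089). nlp-7, whose peptides inhibit egg laying, had 6.14 ± 0.66 against 6.87 ± 0.53 CPM (SD, n = 3 each, adjusted p = 0.47). nlp-47, a gonadotropin-releasing and adipokinetic hormone-like gene with the receptor GNRR-1, had 4.05 ± 0.82 against 5.13 ± 0.83 CPM (adjusted p = 0.29). The groups overlapped for nlp-7 and nlp-47, and the lowest eat-2(ad1116) library of nlp-1 was just above the highest of wild type. The abundant members showed no call either, nlp-40 being at 82.0 ± 5.2 CPM in wild type and 74.7 ± 14 in eat-2(ad1116) (adjusted p = 0.56), and nlp-36 at 47.1 ± 2.3 against 36.6 ± 9.3 CPM (adjusted p = 0.19). For nlp-44 of the same list no gene entry carried the symbol.

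In dis-3(L75Q) no nlp gene was called against wild type by edgeR's quasi-likelihood test, where 0.56% of all tested genes were. At an unadjusted p under 0.05 there were 12 members. For this and all later counts at an unadjusted p, the share of all genes is not given. Such counts are therefore not read as results about the members or lists. DESeq2 called 1 (nlp-9), beside 2.08% of all genes, and limma-voom called 0. The log2 changes of the 70 ran from -1.31 to 1.09, 53 were positive, and the median was 0.25 against 0.02 over all genes. The libraries did not overlap for 14 members higher and 1 lower in dis-3(L75Q), 21.4% of those tested, where 18.9% of all genes were separated in this way. Those higher included nlp-2 (0.539, 0.791 and 0.426 CPM in wild type and 1.16, 1.11 and 1.08 CPM in dis-3(L75Q)), and the gene that was lower was nlp-25. nlp-2 had a log2 change of 0.93 ± 0.31 (SE), with an adjusted p of 0.28.

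In the double mutant 5 of 70 nlp genes were higher than in wild type and none was lower, 7.14% of the members beside 4.27% of all genes tested and 2.54% of them higher. They were nlp-9, nlp-49, nlp-51, nlp-58 and nlp-80. All 5 were among the 14 of eat-2(ad1116), of which they make up 35.7%, in comparisons that share the wild type libraries. The log2 changes of all 14 in the double mutant were positive, from 0.59 to 1.87, as 56 of the 70 members were, and the median over the members was 0.54. At the threshold, nlp-49 was inside with an adjusted p of 0.038, and nlp-25, nlp-13 and nlp-3 were outside at 0.053, 0.054 and 0.056. The libraries of both groups did not overlap for 34 members higher and 2 lower, 51.4% of the members against 37.2% of all genes. In eat-2(ad1116) the corresponding counts were 35 higher and 1 lower, also 51.4%, against 21.7% of all genes.

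**Figure D2:**
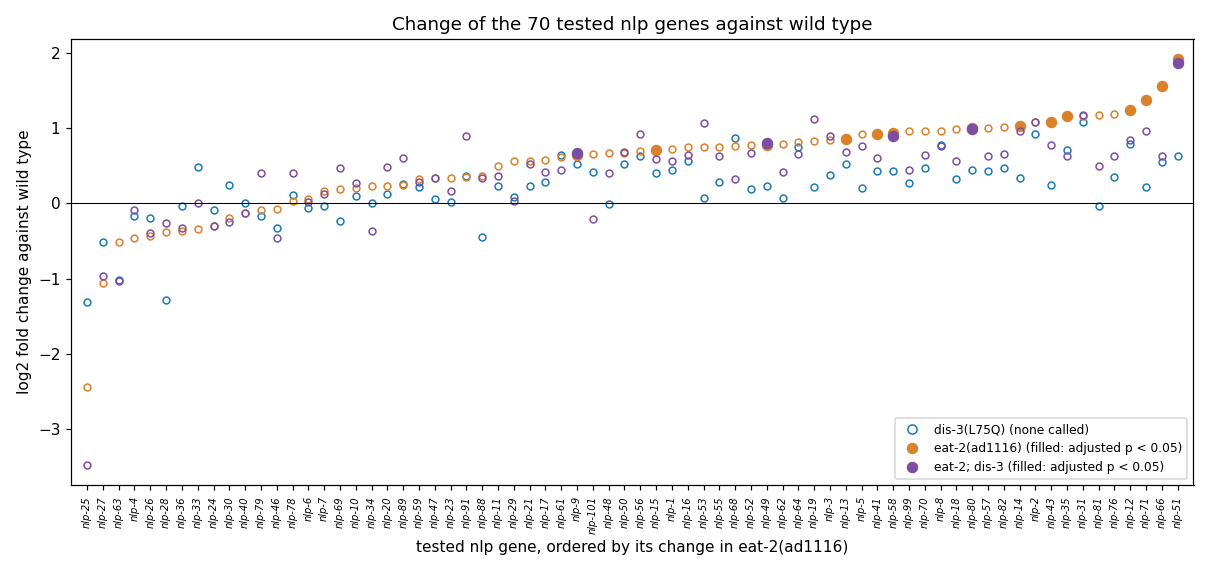
Fitted log2 fold change against wild type of the 70 tested nlp genes, ordered by their change in eat-2(ad1116) (orange), with dis-3(L75Q) (blue) and the double mutant (purple) at the same position. Filled circles have an edgeR adjusted p under 0.05, which holds for 14 genes in eat-2(ad1116), 5 in the double mutant and 0 in dis-3(L75Q); 57, 56 and 53 of the 70 lie above 0.

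Adding dis-3(L75Q) to eat-2(ad1116) gave no call among the nlp genes. Against eat-2(ad1116) alone, edgeR called 0 of 70, where it called 0.351% of all genes, with 1 member at an unadjusted p under 0.05 and 0 by DESeq2 and by limma-voom. That member was nlp-66, with 1.39 ± 0.39 CPM for eat-2(ad1116) alone and 0.729 ± 0.23 CPM for both alleles (SD, n = 3 each), a log2 change of -0.92 ± 0.30 (SE, adjusted p = 0.54). Between these genotypes, nlp-9, nlp-49, nlp-51, nlp-58 and nlp-80 differed by -0.05 to 0.03 on the log2 scale, with SE of 0.15 to 0.31. These genes were called in both genotypes against the same wild type libraries, a choice that favours small differences between the 2. The 14 genes called in eat-2(ad1116), chosen by its libraries, differed by -0.92 to 0.03. The libraries did not overlap for 2 members that were higher (nlp-20 and nlp-78) and 5 lower (nlp-12, nlp-29, nlp-66, nlp-99 and nlp-101), 10.0% of the members beside 12.4% of all genes.

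Adding eat-2(ad1116) to dis-3(L75Q) gave 0 calls by edgeR, where 1.24% of all genes were called, with 13 members at an unadjusted p under 0.05, 1 by DESeq2, beside 3.74% of all genes, and 0 by limma-voom. The DESeq2 call was nlp-51, which edgeR put at 1.23 ± 0.32 (SE, adjusted p = 0.12), and the next were nlp-80 at 0.54 ± 0.16 (0.21) and nlp-49 at 0.58 ± 0.18 (0.23). The test of whether the change by dis-3(L75Q) differs between the backgrounds gave 0 calls of 70, beside 0.0615% of all genes, with 9 at an unadjusted p under 0.05 and 0 by DESeq2 and by limma-voom. For the 14 genes called in eat-2(ad1116) this interaction was negative in each case, from -1.47 for nlp-66 to -0.20 for nlp-49, with adjusted p of 0.52 to 0.69. The interaction contains the eat-2(ad1116) libraries by which the 14 were chosen.

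The epidermal antimicrobial genes gave no call in the main edgeR fit of all 12 libraries by genotype, and their medians in the 3 mutants against wild type lay below those of the other members. The difference between the lists itself was not tested. Of its 11 genes 10 were tested, and edgeR called 0 of 10 in all 6 comparisons. In eat-2(ad1116) 3 of the 10 had an unadjusted p under 0.05, 3 had positive log2 changes and the median was -0.32, whereas of the 60 other members 14 were called, 54 were positive and the median was 0.75. In the double mutant the medians were -0.28 and 0.60, and in dis-3(L75Q) -0.04 and 0.28. DESeq2 called 2 of the 10 lower against wild type and none higher. They were nlp-25 and nlp-27, with log2 changes of -2.48 ± 0.87 (SE, adjusted p = 0.037) and -1.07 ± 0.36 (0.029) in eat-2(ad1116), and of -3.61 ± 0.97 (0.0049) and -1.02 ± 0.36 (0.046) in the double mutant. These were the only members that DESeq2 called lower, among 25 calls in eat-2(ad1116) beside 14% of all genes and 16 in the double mutant beside 11.1%. The library means of log2 CPM ran from 3.52 to 3.97 for the list, and from 1.31 to 1.98 for the 60. The 20 epidermis markers had positive medians against wild type, 0.43 with eat-2(ad1116), 0.65 with dis-3(L75Q) and 0.53 with both alleles, with 0 of 20 called by edgeR in each and 5, 3 and 4 at an unadjusted p under 0.05. Their summed level was 4170 to 8850 CPM in wild type libraries and 5130 to 5860 CPM in those of eat-2(ad1116). It was 7960 to 9850 CPM for dis-3(L75Q) and 7820 to 8310 CPM for both alleles, and its part in the values of the list was not tested. The epidermis markers dpy-7, wrt-2 and nhr-23 are also among the molting genes of the stage score.

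The nlp-29 cluster holds nlp-34, nlp-31, nlp-30, nlp-29, nlp-28 and nlp-27 between positions 3978825 and 3989770 of chromosome V (WBcel235), and the main edgeR fit called 0 of its 6 members in all 6 comparisons. nlp-29, whose peptide also signals to neurons through NPR-12, measured 10.0, 6.24 and 10.2 CPM in wild type, 7.14, 13.03 and 7.86 CPM in dis-3(L75Q), 12.2, 14.5 and 12.4 in eat-2(ad1116), and 10.2, 9.33 and 7.63 in the double mutant. Its eat-2(ad1116) libraries were above wild type, with a log2 change of 0.56 ± 0.26 (SE, edgeR adjusted p = 0.19). nlp-31 measured 9.16, 15.3 and 5.11 CPM in wild type, 28.2, 25.3 and 9.43 CPM in dis-3(L75Q), 14.7, 28.1 and 23.2 in eat-2(ad1116), and 26.8, 21.4 and 19.1 in the double mutant. Within wild type, dis-3(L75Q) and eat-2(ad1116), its odd library was the one that also stood apart in stage score, high in wild type replicate 2 and low in replicate 3 of dis-3(L75Q) and replicate 1 of eat-2(ad1116). The log2 changes of nlp-31 of 1.09, 1.16 and 1.18 (SE 0.45 each) in dis-3(L75Q), eat-2(ad1116) and the double mutant had adjusted p of 0.30, 0.14 and 0.16.

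nlp-27 and nlp-28, at the other end of the cluster, had the opposite pattern over the wild type libraries. nlp-27 measured 66.0, 28.3 and 87.1 CPM in wild type, 32.2, 44.6 and 50.8 CPM in dis-3(L75Q), 35.0, 28.2 and 23.6 in eat-2(ad1116), and 29.9, 35.3 and 27.6 in the double mutant. nlp-28 went from 8.05, 3.86 and 12.1 CPM in wild type libraries to 2.28, 2.72 and 4.86 CPM with dis-3(L75Q). For both, wild type replicate 2 was the lowest wild type library and fell among the mutant ones. The log2 change of nlp-27 in eat-2(ad1116) was -1.06 ± 0.34 (SE, edgeR adjusted p = 0.085), and that of nlp-28 in dis-3(L75Q) was -1.29 ± 0.40 (adjusted p = 0.27). The scarce nlp-25, outside the cluster, was counted 22, 23 and 23 times in wild type and 0 to 18 times in the mutant libraries, and its log2 change in the double mutant of -3.48 ± 0.88 had an adjusted p of 0.053. Molting and oocyte genes differed between the same libraries, and the part of stage in these values was not tested for single genes.

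**Figure D3:**
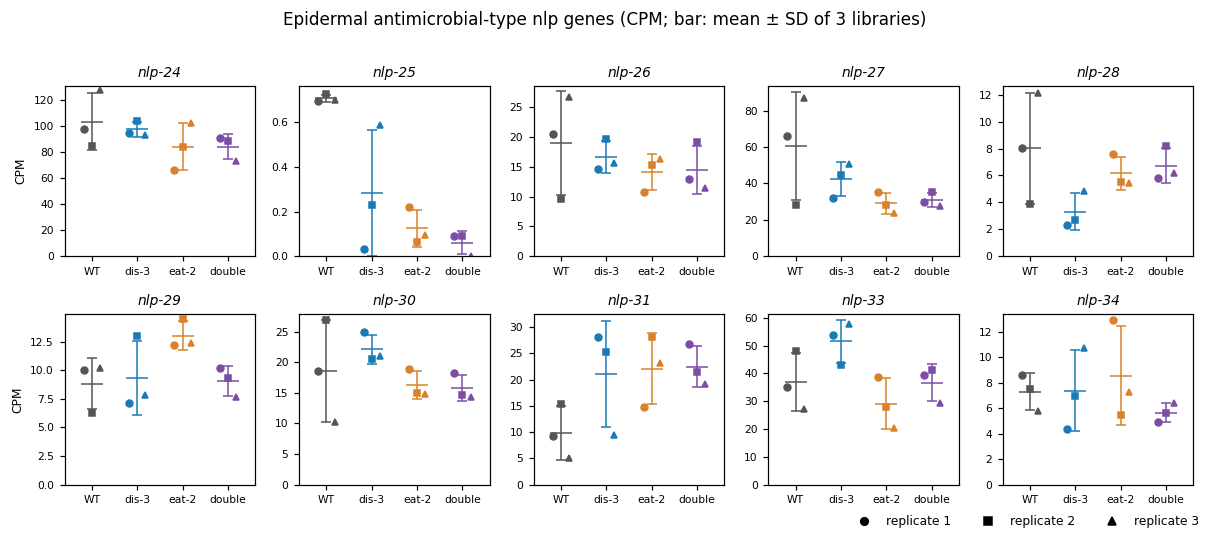
CPM of the 10 tested genes of the epidermal antimicrobial list in the 4 genotypes, 1 panel a gene with its own axis from 0, with symbols for libraries by replicate number and bars for the mean ± SD of 3 libraries. The main edgeR fit called no gene in any comparison, while DESeq2 called nlp-25 and nlp-27 lower in both genotypes with eat-2(ad1116). nlp-31 is high in wild type replicate 2, where nlp-27 and nlp-28 are low.

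Some of the genes that make and release neuropeptides were called in eat-2(ad1116). Of 19 tested genes for peptide processing and dense core vesicles, edgeR called 6 higher and 0 lower in eat-2(ad1116). This is 31.6% beside 6.21% of all genes, with 17 positive and a median log2 change of 0.43. In the double mutant it called 2 higher, 10.5% beside 4.27% of all genes, and in the other comparisons 0. The 6 were sbt-1, the chaperone of the proprotein convertase EGL-3 (18.6 ± 3.1 to 31.1 ± 3.1 CPM, SD, n = 3 each, log2 change 0.74 ± 0.13, SE, adjusted p = 0.012), the carboxypeptidase egl-21 (48.6 ± 14 CPM in eat-2(ad1116), log2 change 0.85 ± 0.22, adjusted p = 0.048), the amidating enzyme genes pghm-1 (27.5 ± 2.7 to 51.7 ± 12 CPM, adjusted p = 0.018) and pgal-1 (66.5 ± 8.8 to 106.0 ± 23 CPM, adjusted p = 0.038), and the dense core vesicle genes ida-1 (23.8 ± 5.3 to 45.7 ± 12 CPM, adjusted p = 0.035) and unc-31 (14.2 ± 1.5 to 21.8 ± 4.3 CPM, adjusted p = 0.046). In the double mutant sbt-1 (30.1 ± 0.86 CPM, adjusted p = 0.018) and pghm-1 (50.2 ± 4.4 CPM, adjusted p = 0.026) were called. egl-3 itself was just outside at an adjusted p of 0.055 in eat-2(ad1116). Over 24 alternative settings, the eat-2(ad1116) call was kept in 19 for sbt-1, 17 for pghm-1, 12 for ida-1 and 10 for pgal-1. For egl-21 and unc-31 it was kept in 8 each. Of 13 receptor genes reported for nlp peptides, edgeR called 0 in all 6 comparisons, with 3 at an unadjusted p under 0.05 in eat-2(ad1116). Among 21 regulators of the epidermal antimicrobial genes, edgeR called 1, the kinase-like gene nipi-3, in the double mutant (37.3 ± 4.1 to 56.9 ± 1.5 CPM, adjusted p = 0.042). This is 4.76% of the regulators, near the 4.27% of all genes called there. Of 5 tested caenacin genes, which also encode epidermal antimicrobial peptides, cnc-10 was called in eat-2(ad1116) (7.85 ± 0.71 to 12.1 ± 1.7 CPM, adjusted p = 0.049). That 1 gene is 20% of the 5, beside 6.21% of all genes.

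Of 20 neuronal markers, 3 were called higher in eat-2(ad1116), 15% beside 4.08% of all genes, and 17 were not called. Most of the 20 are pan-neuronal, whereas cho-1, unc-17, eat-4 and unc-25 mark neurons by their transmitter. The summed level of the 20 neuronal markers was 463 to 543 CPM in wild type and 507 to 600 CPM in dis-3(L75Q). It was 519 to 725 CPM in eat-2(ad1116) and 582 to 625 CPM for both alleles, and the 3 genes called in eat-2(ad1116) were unc-10, sng-1 and unc-17, with 18 of 20 changes positive and a median log2 change of 0.54. The markers egl-3 and ric-19 are also on the processing list. The double mutant had 1 of 20 called (unc-10), 5% beside 2.54% of all genes called higher, and a median of 0.48, and dis-3(L75Q) 0 of 20 and a median of 0.30. Over the libraries, the mean log2 CPM of the 60 nlp genes outside the epidermal list was 1.32, 1.44 and 1.31 for wild type, 1.61, 1.62 and 1.45 for dis-3(L75Q), 1.63, 1.98 and 1.94 in eat-2(ad1116) and 1.80, 1.79 and 1.70 in the double mutant. The summed level of the 15 pharynx markers was 785 to 1010 CPM in wild type libraries and 862 to 2070 CPM in those of eat-2(ad1116), with 851 to 1200 CPM for dis-3(L75Q) and 1160 to 1270 CPM for both alleles. Their median log2 change in eat-2(ad1116) was 0.66, with 12 of 15 positive, 9 at an unadjusted p under 0.05 and 1 called (pha-4), and in the double mutant 0.44, with 12 positive and 1 called (phat-1). The part of the neuronal and pharynx markers in the nlp result was not tested. An alternative chosen after seeing the data scaled the libraries to the summed counts of the 20 neuronal markers alone. It moved the median of all genes to -0.38, and 8 members were called in eat-2(ad1116) beside 15.6% of all genes. nlp-51 (1.54), nlp-66 (1.15), nlp-14 (0.63) and nlp-80 (0.61) were higher on the log2 scale, and nlp-24 (-0.71), nlp-27 (-1.44), nlp-36 (-0.77) and nlp-40 (-0.53) were lower. In the double mutant this scaling gave 6 calls beside 9.29% of all genes, nlp-51 (1.58), nlp-80 (0.68) and nlp-14 (0.66) higher and nlp-25 (-3.78), nlp-36 (-0.64) and nlp-40 (-0.44) lower, while nlp-9, nlp-49 and nlp-58 lost their calls with adjusted p of 0.15, 0.069 and 0.057.

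**Figure D4:**
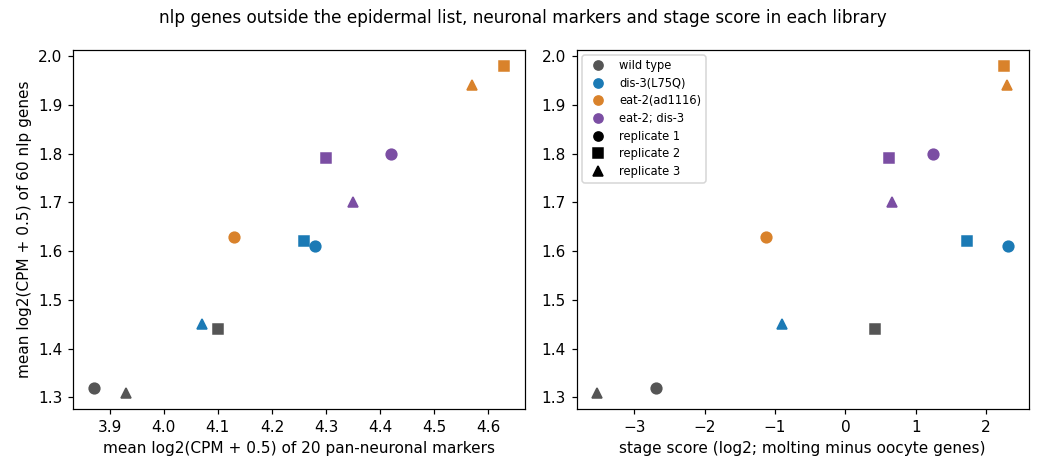
Mean log2(CPM + 0.5) of the 60 tested nlp genes outside the epidermal list in each of 12 libraries. It is plotted against the same mean of 20 neuronal markers (left, named pan-neuronal on the axis) and against the stage score (right). Colours give genotypes and symbols give replicate numbers. The highest nlp means, 1.98 and 1.94, are those of eat-2(ad1116) replicates 2 and 3, which also have the highest marker means, and eat-2(ad1116) replicate 1 lies at 1.63.

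The count of calls moved in both directions with the way the stage of the libraries was treated. With the stage score as a covariate, 2 nlp genes remained called in eat-2(ad1116), nlp-51 at 1.5 ± 0.34 (SE, edgeR adjusted p = 0.032) and nlp-80 at 0.75 ± 0.16 (adjusted p = 0.025), beside 4.91% of all genes, and the same genes remained in the double mutant at 1.51 ± 0.33 (0.028) and 0.77 ± 0.15 (0.018), beside 4.26%. Between the double mutant and dis-3(L75Q) the covariate gave 5 calls, all higher in the double mutant, beside 4.63% of all genes. They were nlp-51 (1.27 ± 0.27, adjusted p = 0.021), nlp-28 (1.04 ± 0.20, 0.015), nlp-14 (0.67 ± 0.17, 0.048), nlp-49 (0.60 ± 0.14, 0.036) and nlp-80 (0.56 ± 0.12, 0.028). Without the 3 libraries apart in stage, an omission that narrows the spread within groups by its construction, 41 members were called in eat-2(ad1116), 37 higher and 4 lower, which is 58.6% of them beside 58.6% of all genes. The omission also leaves wild type at stage scores of -2.69 and -3.53, and every mutant library at 0.62 or above. In this fit a difference from wild type by genotype and one by stage cannot be told apart. Of the 4 lower genes 3 were of the epidermal list, nlp-25, nlp-27 and nlp-28, and its only member called higher was nlp-31 (1.85 ± 0.26, adjusted p = 0.00044). The same omission gave 24 calls in dis-3(L75Q), 20 higher and 4 lower, beside 51.6% of all genes, and 32 in the double mutant, 26 higher and 6 lower, beside 46.9% of all genes. For the interaction it gave 30 calls, 3 higher and 27 lower, 42.9% of the members beside 53% of all genes. Fitted on the 6 libraries of wild type and eat-2(ad1116) alone, 0 nlp genes and 0.529% of all genes were called. Leaving out eat-2(ad1116) replicate 1 alone gave 36 calls beside 37.5% of all genes, and leaving out replicate 2 or replicate 3 gave 2 each, beside 1.83% and 1.81%.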

How the data were processed

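The tables that the authors deposited give 1 expected count for each gene, a fragment number that RSEM estimates and that may be a fraction, per the file headers. STAR 2.7.0e and RSEM 1.3.1 are named in the submitters' processing notes, with the builds WBcel235 and ce11. No source used here gives the gene models or the strand setting of the counting. Between 93.4% and 93.8% of the values above 0 in a library were exactly whole (tolerance 0), and all were rounded to whole numbers.

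Genes were fitted together in edgeR 4.0.16 (limma 3.58.1, R 4.3.3) with trimmed mean of M-values scaling, the default filter by genotype and robust quasi-likelihood F tests over all 12 libraries with genotype as the term. P-values were adjusted by the Benjamini-Hochberg method over 16259 genes in each of 6 comparisons and called under 0.05. CPM are counts relative to the scaled totals, and log2 levels added 0.5 or a prior count of 2. TPM were computed from union exon lengths. Coordinates are 1-based, from Ensembl release 115. DESeq2 1.42.0, limma-voom, other scalings, filters and sample sets were alternatives. Leaving-out settings and the stage covariate changed 1 choice at a time. The labels do not say that a replicate number marks a shared harvest, and same-numbered libraries deviated together with correlations of only -0.63 to 0.42, so the numbers were not taken as pairs. The correlations cannot exclude shared harvests, because the libraries apart in stage carry different numbers in different genotypes.

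Named with values were all members called in any comparison, the nlp-29 cluster, the 5 most abundant members and those listed for a role; genes of the other lists were named where called, and egl-3 was added after its values were seen, as were members named for a lack of overlap or for lying near a threshold. Members and lists were chosen with earlier results of these data known. No sequence is printed. Intervals and floors cover counting error only.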

Additional observations from a re-analysis of the deposited data

How the results depend on the processing

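Among nlp genes, none of the 19 results called in the main edgeR fit changed direction in any alternative. Members called only in an alternative were not followed in this way. The 16 results of called genes from the other lists also kept their direction. Of their 384 values under these alternatives, 213 kept the call and 171 lost it. nlp-80 and nlp-51 kept their calls in eat-2(ad1116) in all 12 omissions of 1 library, and lost them in the fit of 6 libraries (adjusted p = 0.12 for both). In eat-2(ad1116) against wild type the count of 14 nlp genes became 23 with library totals alone and 25 with DESeq2 (23 higher, and nlp-25 and nlp-27 lower). It became 0 with 6 libraries, 2 at an adjusted p under 0.01 and 2 with the stage covariate. It became 41 without the 3 libraries apart in stage and 8 with scaling to the neuronal markers. In the double mutant against wild type the count of 5 became 14 with library totals, 16 with DESeq2 and 1 at 0.01. It became 2 with the stage covariate and 32 without the 3 libraries. With scaling to the neuronal markers it became 6, of which 2 were among the 5. The count of 0 in dis-3(L75Q) became 1 with DESeq2 and 24 without the 3 libraries. Omitting these libraries called 25% to 58.6% of all genes in the 6 comparisons. The count of 0 between the double mutant and eat-2(ad1116) became 6 without the 3 libraries, and that of 0 between it and dis-3(L75Q) became 1 with DESeq2, 1 with 6 libraries, 5 with the stage covariate and 6 without the 3 libraries. The interaction count of 0 became 30 without them, 42.9% of the members beside 53% of all genes. A replicate block, although the labels do not say that the numbers pair the libraries, gave 6 calls in eat-2(ad1116), 3 in the double mutant against wild type and 0 elsewhere. Leaving out 1 library at a time gave 2 to 36 calls in eat-2(ad1116): 36 without its replicate 1, 2 without its replicate 2 or 3, 4 without wild type replicate 1 or 3, 8 without dis-3(L75Q) replicate 1 or double mutant replicate 2 or 3, and 9 without double mutant replicate 1. Counts for the remaining omissions are not listed here. The edgeR calls included nlp-27 lower and nlp-31 higher without wild type replicate 2 (adjusted p = 0.0083 and 0.047) and without eat-2(ad1116) replicate 1 (0.042 and 0.048). Leaving out 1 library gave 1 to 14 in the double mutant against wild type, 0 to 2 in dis-3(L75Q) (nlp-27 and nlp-28 lower without wild type replicate 2), 0 to 0 between the double mutant and eat-2(ad1116), 0 to 1 between it and dis-3(L75Q) and 0 to 4 for the interaction (without eat-2(ad1116) replicate 1). Shares of all genes are not given here for library totals, the 0.01 threshold, the replicate block and most omissions of 1 library. The counts under these settings do not show whether the nlp genes moved more than all genes. The filter on low counts left out 8 of the 78 members, none of which was called without it.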

Other observations

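The members differed in how far the 3 libraries of a genotype lay apart. The pooled SD of log2 CPM within genotypes had a median of 0.33 over the 70 tested nlp genes. It was lowest for nlp-20 (0.102), nlp-7 (0.124) and nlp-9 (0.128). Among the 28 members above 10 TPM it was highest for nlp-31 (0.644), nlp-28 (0.536), nlp-27 (0.485), nlp-34 (0.479) and nlp-26 (0.470), all of the epidermal antimicrobial list, although these are among the more abundant members, with mean levels of 6.05 to 40.7 CPM. Over all tested members it was highest for nlp-25 (0.847), nlp-53 (0.809) and nlp-70 (0.784), each below 1 CPM on average, where counting error is larger.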
